A study of Homo sapiens with 6 samples.

Results

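CDC45, the 4 GINS subunits (GINS1, GINS2, GINS3 and GINS4), the 3 subunits of replication protein A (RPA1, RPA2 and RPA3), TIMELESS and TIPIN were examined in COV434 cells treated with 4HC. These 10 genes were taken by symbol from the 16798 genes of the deposited gene table, and all 10 were found and passed the filter on low counts. The measurement was bulk RNA sequencing of the human cell line COV434, with 3 samples titled control (genotype label WT) and 3 titled CTX (genotype label CTX, treatment label CTX-Induced), which were exposed to 15 µM 4HC for 24 h. 4HC is an activated form of cyclophosphamide (CTX), a chemotherapy drug that crosslinks DNA, and the comparison addressed how granulosa cells respond to it. All cells were grown in DMEM with 10% fetal bovine serum. The vehicle of the controls is not given in the sources used here.

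The replicative helicase unwinds DNA ahead of the polymerases. It forms when CDC45 and the GINS tetramer bind the ring of MCM2 to MCM7, and the resulting assembly is called CMG. RPA is the heterotrimer that coats the single-stranded DNA which unwinding exposes, and it also serves as the platform for the ATR checkpoint kinase. TIMELESS and TIPIN form a dimer that rides on the helicase and keeps unwinding coupled to DNA synthesis when the fork meets damage. In dividing cells the genes of this machinery are mostly transcribed around entry into S phase, in part through E2F factors.

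The 6 samples held between 16133786 and 16702316 expected counts, and 12368 genes were tested. COV434 is labelled as granulosa cells. Of 15 granulosa markers looked up, 13 were in the table and 7 of these, FOXL2, FSHR, INHBB, CYP19A1, STAR, NR5A1 and GATA4, had at most 3 counts in every sample. The 4 that passed the filter were WT1, HSD17B1, AMH and INHA, with control means of 218, 14.2, 5.19 and 0.797 CPM (counts per 1000000). No label says that the 3 samples of a group were separate cultures, so the p-values measure only the spread between these samples. Expression was counted over a whole culture, in which a change in the share of cells in S phase and a change in RNA per cell cannot be told apart.

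After 4HC, 8 of the 10 genes were upregulated compared to controls, TIPIN was downregulated, and GINS2 did not pass the test (edgeR quasi-likelihood test, Benjamini-Hochberg adjusted p under 0.05). By the same rule 36.4% of all genes tested were called, 19.2% higher and 17.1% lower. The changes were of modest size: the log2 fold change was 0.64 for GINS4, 0.55 for TIMELESS and 0.50 for GINS1 at the upper end, and -0.20 for TIPIN at the lower. The median over the 10 genes was 0.35, and over all genes tested it was 0.0047. The largest rise was 1.56-fold, below the 2-fold change that, with an unadjusted p under 0.05, 1.15% of all genes tested reached. For 9 genes the 3 control values and the 3 4HC values did not overlap, 8 of them higher and 1 lower after 4HC. Over all genes tested, groups that did not overlap made up 23.4% for higher and 21.9% for lower values.

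**Figure D1:**
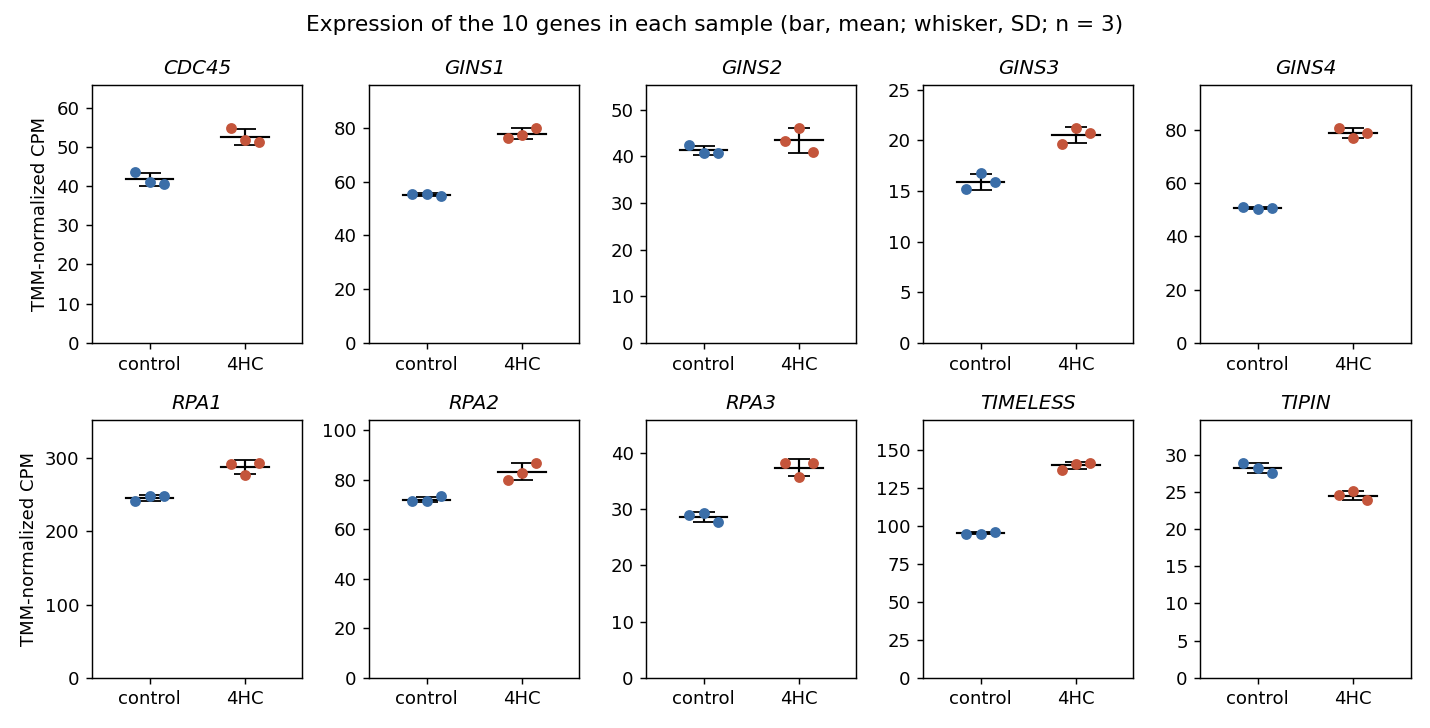
CPM after library scaling (y axis, from 0) for each of the 10 genes in the 3 control (blue) and 3 4HC (red) samples, with the group mean as a bar and the SD as a whisker. The red points lie above the blue in 8 genes and below them in TIPIN, and the groups overlap only in GINS2.

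The stretches of DNA around the start sites of 5 of these genes are shown because these genes span the range of responses, from TIMELESS and GINS1, which rose, to TIPIN, which fell. Each is the plus- or minus-strand RefSeq promoter sequence on GRCh38.p14, written 5′ to 3′ along the gene from position -150 to position 29, counted from 0 at the start site. Capitals mark the letters CCAAT, a box bound by NF-Y, or 1 of 4 E2F spellings (TTTCCCGC, TTTGGCGC, TTTGCCGC and TTTCGCGC), on either strand. They come from chr12:56449397-56449576 (TIMELESS, minus strand), chr20:25407523-25407702 (GINS1, plus), chr16:85688925-85689104 (GINS2, minus), chr22:19479770-19479949 (CDC45, plus) and chr15:66356656-66356835 (TIPIN, minus, the second of its listed starts).
TIMELESS: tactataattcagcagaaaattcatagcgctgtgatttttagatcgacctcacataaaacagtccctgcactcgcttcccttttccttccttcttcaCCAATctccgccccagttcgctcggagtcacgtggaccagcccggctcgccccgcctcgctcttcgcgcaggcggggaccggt
GINS1: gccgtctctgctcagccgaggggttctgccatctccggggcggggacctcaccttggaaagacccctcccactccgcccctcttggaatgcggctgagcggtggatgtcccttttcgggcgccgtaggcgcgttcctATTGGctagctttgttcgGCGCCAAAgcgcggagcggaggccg
GINS2: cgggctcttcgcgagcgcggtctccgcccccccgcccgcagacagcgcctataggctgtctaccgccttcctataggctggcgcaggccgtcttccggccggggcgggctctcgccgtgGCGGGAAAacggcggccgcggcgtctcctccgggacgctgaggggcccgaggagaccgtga
CDC45: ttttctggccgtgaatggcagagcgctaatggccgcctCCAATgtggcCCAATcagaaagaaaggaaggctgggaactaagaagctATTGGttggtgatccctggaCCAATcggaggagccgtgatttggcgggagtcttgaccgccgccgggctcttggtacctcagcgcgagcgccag
TIPIN: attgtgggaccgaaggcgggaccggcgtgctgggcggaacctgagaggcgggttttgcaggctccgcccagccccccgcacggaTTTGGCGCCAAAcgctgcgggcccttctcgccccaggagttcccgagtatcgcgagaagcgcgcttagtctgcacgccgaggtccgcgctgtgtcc

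RefSeq promoter windows, each from 250 bases before to 50 bases after a start, were given for 7 of the 10 genes, in 10 windows, and GINS4, RPA2 and RPA3 were not among them. An E2F spelling stood in 4 of the 10 windows, 1 each of GINS1, GINS2, GINS3 and TIPIN, against 3.31% of all 35116 promoter windows. In GINS1 it covered positions 5 to 12, and in GINS2 positions -31 to -24. In the TIPIN window it was found on both strands at once, in overlapping matches from -66 to -55. None of the 4 spellings stood in the windows of CDC45, RPA1 or TIMELESS, and other E2F spellings were not sought. The 4 genes with a match included 2 that rose (GINS1 and GINS3), GINS2, which was not called, and TIPIN, which fell. CCAAT stood in 7 of the 10 windows, belonging to 6 of the 7 genes, and in 34.6% of all windows. The CDC45 windows with CCAAT overlap and share some of these matches. CDC45 had 4 such matches in the stretch shown. The letters TTTGAA, one spelling of the CHR element of genes of G2 and mitosis, stood in no window of the 7 genes and in 15.2% of all windows. These are matches of letters and not measured binding.

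CDC45 (NCBI Gene 8318, chr22:19479459-19520612 of GRCh38, plus strand) is the CMG subunit whose loading, with GINS, turns the MCM ring into an active helicase. Its level was 43.6, 41.1 and 40.5 CPM (counts per 1000000, after trimmed-mean scaling of the libraries) in the controls and 54.8, 51.7 and 51.1 CPM after 4HC. All 3 treated samples were above all 3 controls. The mean rose from 41.7 ± 1.62 to 52.5 ± 1.99 CPM (SD, n = 3 each), a log2 fold change of 0.33 (SE 0.053, edgeR adjusted p = 1.18e-06).

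Of the GINS subunits, 3 rose and by unequal amounts. GINS4 (Gene 84296, chr8:41529206-41545046, plus strand) had 51.1, 50.2 and 50.7 CPM in the controls and 80.8, 77.1 and 78.8 CPM after 4HC. The control samples lay within 1 CPM of one another, and every treated sample was far above them. Its log2 fold change of 0.64 (SE 0.047, edgeR adjusted p = 2.17e-16) was higher than that of any other gene of the 10. GINS1 (Gene 9837, chr20:25407727-25452628, plus strand), also known as PSF1, had 55.3, 55.5 and 54.7 CPM in the controls and 76.3, 77.3 and 79.9 CPM after 4HC. Its groups were as clearly apart, with a log2 fold change of 0.50 (SE 0.047, edgeR adjusted p = 9.57e-13).

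GINS3 (Gene 64785, chr16:58295080-58406144, plus strand), the least abundant of the 10, had 15.2, 16.7 and 15.9 CPM in the controls and 19.6, 21.2 and 20.7 CPM after 4HC. The groups did not overlap, and the log2 fold change was 0.36 (SE 0.076, edgeR adjusted p = 0.000116). GINS2 (Gene 51659, chr16:85676198-85690073, minus strand) was the exception in the tetramer. It had 42.4, 40.7 and 40.8 CPM in the controls and 43.3, 46.1 and 40.9 CPM after 4HC. The third treated sample lay among the controls. The log2 fold change of GINS2 was 0.07, with a 95% confidence interval from -0.04 to 0.18 (edgeR adjusted p = 0.325), an interval that includes 0 and also a small rise. The lower bounds of GINS4, at 0.54, and of GINS1, at 0.40, lay above the upper bound of GINS2.

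The annotation places some exonic bases of these genes under a gene on the other strand. GINS4 shares 1159 exonic bases (21.2%) with the antisense gene AC009630.2, and GINS3 shares 558 (10.9%) with AC009118.2. Neither antisense gene is a row of the gene table, and strand use in the counting is not given in the sources used here, so reads of such a pair cannot be told apart. The other helicase genes gave whole-number counts, as did GINS3 and GINS4.

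The 3 RPA genes all rose, and by less than GINS4. RPA1 (Gene 6117, chr17:1829702-1900082, plus strand), the large subunit that carries the main DNA-binding domains, had 241, 249 and 248 CPM in the controls and 292, 277 and 294 CPM after 4HC. Every treated sample exceeded every control, with a log2 fold change of 0.22 (SE 0.034, edgeR adjusted p = 4.69e-07). RPA2 (Gene 6118, chr1:27891524-27914746, minus strand), the middle subunit that checkpoint kinases phosphorylate on damaged DNA, had 71.4, 71.4 and 73.3 CPM in the controls and 80.1, 82.9 and 87.0 CPM after 4HC. Its groups were apart as well, and the log2 fold change was 0.21 (SE 0.045, edgeR adjusted p = 0.000181).

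RPA3 (Gene 6119, chr7:7636518-7718607, minus strand in the annotation), the small subunit that holds the trimer together, had 29.0, 29.4 and 27.7 CPM in the controls and 38.3, 35.7 and 38.3 CPM after 4HC. The groups did not overlap, and the log2 fold change was 0.38 (SE 0.059, edgeR adjusted p = 6.41e-07). Its 95% confidence interval, from 0.26 to 0.50, overlapped those of RPA1 and RPA2. In the annotation RPA3 shares 118 exonic bases (3.65%) with UMAD1, a gene on the other strand that is a row of the gene table, and 70 with AC007161.3. The start of RPA1 lies 103 bases from that of SMYD4, a gene on the other strand that was named because of this position, and the pair shares 156 exonic bases. SMYD4 went from 22.7 ± 1.38 to 29.0 ± 2.10 CPM (SD, n = 3 each), a log2 fold change of 0.36 (edgeR adjusted p = 2.49e-05).

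The genes of the fork protection dimer moved in opposite directions. TIMELESS (Gene 8914, chr12:56416373-56449403, minus strand in the annotation), its scaffold subunit, had 95.0, 95.0 and 96.1 CPM in the controls and 137, 141 and 142 CPM after 4HC. The treated samples formed a tight group above the controls, and the log2 fold change was 0.55 (SE 0.040, edgeR adjusted p = 7.08e-17). TIPIN (Gene 54962, chr15:66336206-66386746, minus strand), the partner that contacts RPA, had 29.0, 28.2 and 27.5 CPM in the controls and 24.6, 25.1 and 23.9 CPM after 4HC. Every treated sample was below every control. TIPIN fell by 0.20 on the log2 scale (SE 0.063, 95% confidence interval from -0.33 to -0.08, edgeR adjusted p = 0.00929).

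The fall of TIPIN rests on counts of another kind than the rest. It was the only gene of the 10 whose expected counts were not whole numbers, as happens when a counting program divides reads between a gene and another. The other gene was not identified. In the annotation 579 exonic bases of TIPIN (21.0%) overlap RPL9P25, a processed pseudogene of a ribosomal protein gene on the same strand and not a row of the gene table. The other 9 genes had whole counts in every sample. Another start of TIPIN lies 195 bases from that of MAP2K1, named for that position, which had 68.9 ± 1.76 CPM in the controls and 66.3 ± 2.63 CPM after 4HC (SD, n = 3 each, edgeR adjusted p = 0.368).

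**Figure D2:**
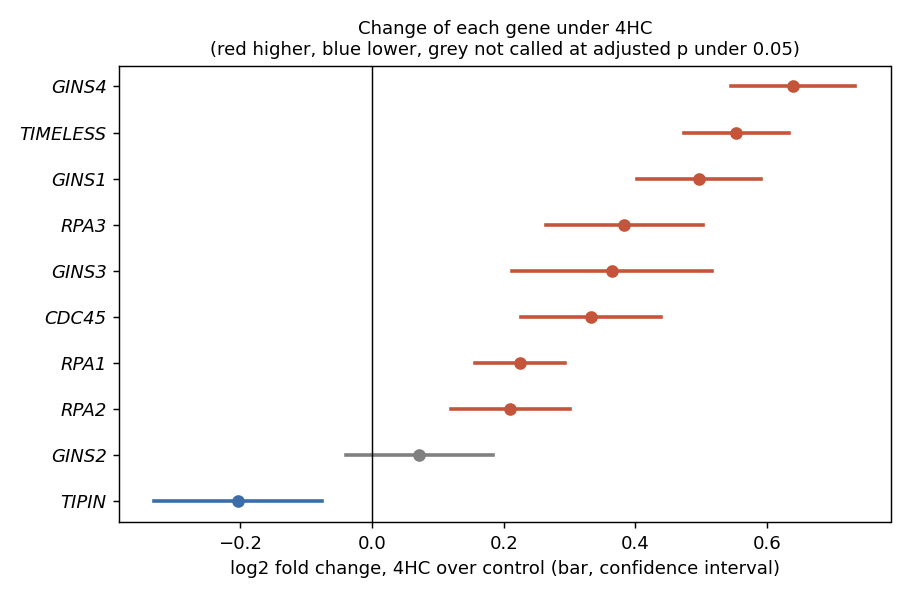
Log2 fold change of 4HC over control (x axis) for each of the 10 genes, ordered by size, with the 95% confidence interval of the edgeR fit. The intervals of GINS4, TIMELESS and GINS1 lie farthest above 0, that of GINS2 includes 0, and that of TIPIN lies below it.

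Since these proteins act in complexes, the ratio of the counts of partner subunits was taken within each sample, a quantity that the scaling of libraries does not touch. Of 10 pairs compared, 8 had groups that did not overlap, while among all 76242726 pairs of tested genes with counts in every sample 43.6% did not overlap. The 10 pairs share genes and are not independent of one another. With 3 against 3 samples the smallest p of the exact permutation test is 0.1, which those 8 pairs reached (two-sided, Benjamini-Hochberg adjusted p = 0.125 over the 10 pairs), so no pair could pass 0.05. The ratio of TIMELESS to TIPIN counts was 3.28, 3.37 and 3.49 in the controls and 5.58, 5.61 and 5.94 after 4HC. This was the largest shift of the 10 pairs, by 0.76 on the log2 scale.

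Within GINS, the shifts with the largest size were those of pairs with GINS2 and GINS4 or GINS1. The ratio of GINS2 to GINS4 counts was 0.830, 0.811 and 0.805 in the controls and 0.536, 0.598 and 0.519 after 4HC, a log2 difference of -0.57. The log2 ratio of GINS1 to GINS2 differed by 0.43, with groups that did not overlap. The log2 difference was -0.29 for GINS2 to GINS3, -0.27 for GINS3 to GINS4 and -0.14 for GINS1 to GINS4, again without overlap. GINS1 to GINS3 was the one GINS pair with overlapping groups (log2 difference 0.13, exact permutation p = 0.2). In RPA, the ratio of RPA1 to RPA2 counts was 3.38, 3.49 and 3.38 in the controls and 3.65, 3.33 and 3.38 after 4HC, a log2 difference of 0.02 with overlapping groups (exact permutation p = 0.9). The log2 differences were -0.16 for RPA1 to RPA3 and -0.17 for RPA2 to RPA3, without overlap.

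**Figure D3:**
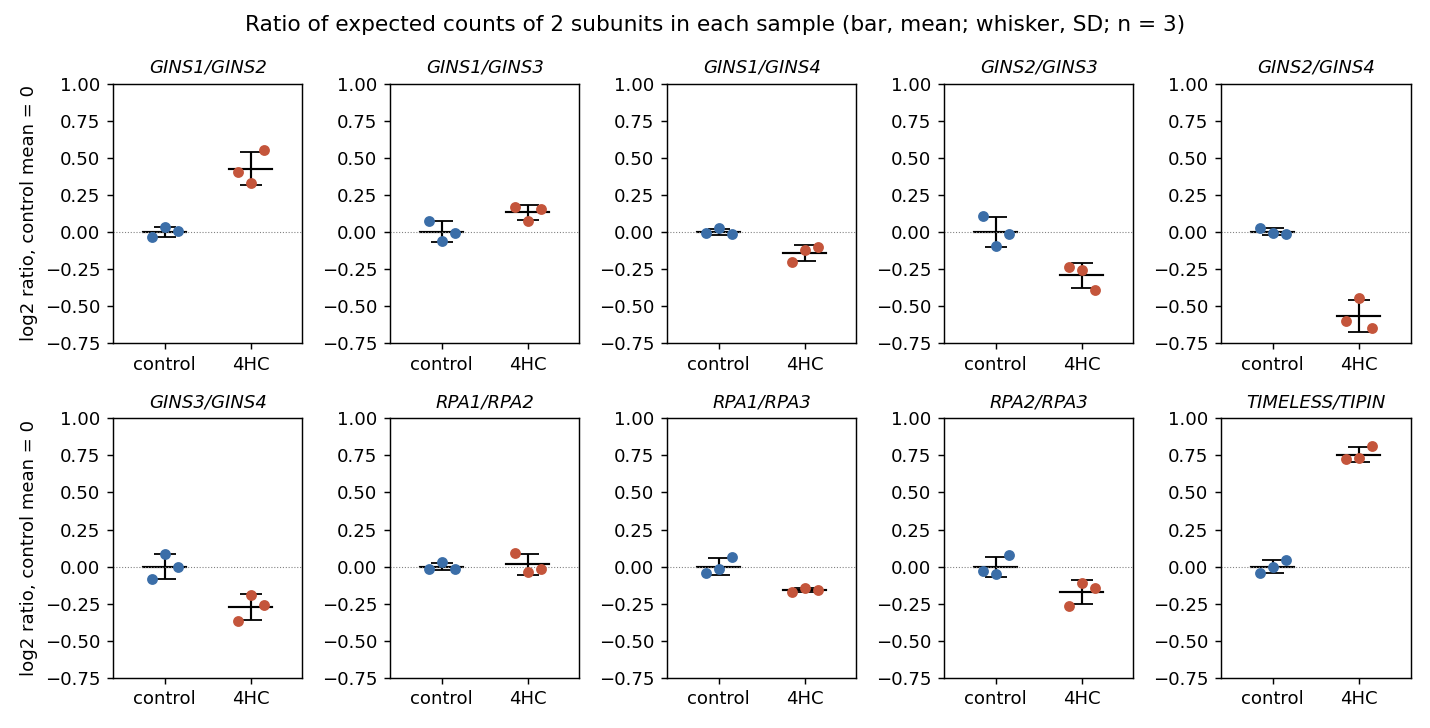
Log2 ratio of the expected counts of each of the 10 pairs of partner subunits (y axis, control mean set to 0) in the 3 control (blue) and 3 4HC (red) samples, with mean and SD. TIMELESS to TIPIN lies highest after 4HC, GINS2 to GINS4 lowest, and GINS1 to GINS3 and RPA1 to RPA2 are the pairs in which the groups overlap.

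Levels of different genes were compared in TPM, which corrects for transcript length. In the controls RPA1 stood at 106 ± 2.41 TPM and RPA2 at 86.6 ± 1.88 TPM, followed by CDC45 at 41.0 ± 1.52 TPM and TIMELESS at 30.6 ± 0.395 TPM (SD, n = 3 each). GINS1 had 28.6, GINS2 27.6, TIPIN 26.4, RPA3 25.9, GINS4 23.4 and GINS3 13.7 TPM as control means. Of neighbours in this order only TIPIN and RPA3 had overlapping control ranges. RPA1 was 4.09 times RPA3 in mean TPM in the controls and 3.71 times after 4HC. TIMELESS was 1.16 times TIPIN in the controls and 1.93 times after 4HC. After 4HC, GINS4 had a mean of 36.2 TPM and was above GINS2, at 28.9 TPM, whereas in the controls it was below.

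**Figure D4:**
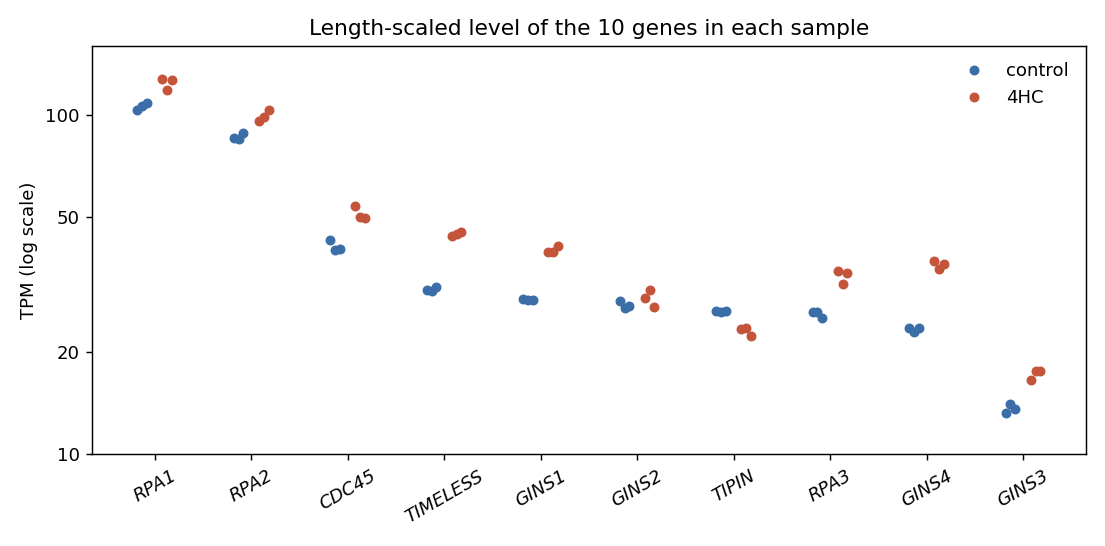
TPM of the 10 genes in each sample (log y axis), ordered by the control mean, with controls in blue and 4HC samples in red. GINS4 moves from below GINS2 to above it, and TIMELESS and TIPIN, close together in the controls, draw apart.

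The transcript table was used to see which transcripts carried these changes. It listed 40 transcripts of the 10 genes, of which 28 were tested. The edgeR quasi-likelihood test over all 42216 transcripts tested called 4 of them higher, in GINS1, GINS4, RPA3 and TIMELESS, and 0 lower, where 0.706% of all transcripts tested were called higher and 0.587% lower. The groups did not overlap in 12 transcripts with higher and 2 with lower counts after 4HC, against 10.2% and 9.88% of all transcripts tested. At an unadjusted p under 0.05, 12 were higher and 2 lower, where 5.48% of all transcripts tested were higher and 5.51% lower by that rule. DESeq2 called 10 higher and 1 lower, and of all transcripts it called 3.47% higher and 3.54% lower. Leaving out any one of the 6 samples left 0 of the 4 calls past the threshold. Few transcripts were called at all in those fits, from 58 of 46476 tested to 127 of 46413. At an unadjusted p under 0.05, from 10 to 13 transcripts of the 10 genes were higher in those fits. GINS1 was carried by NM_021067, with 98.2% of its counts in the controls (log2 fold change 0.50, edgeR adjusted p = 0.0131), and TIMELESS mainly by NM_003920, with 83.7% (0.50, adjusted p = 0.0185). NM_001330295 of TIMELESS had a larger log2 fold change of 0.80 but was not called (edgeR adjusted p = 0.132). In CDC45, XM_024452277 went from a mean of 96.4 to 180 counts without overlap (0.89, edgeR adjusted p = 0.323). NM_003504 of CDC45 went from 493 to 581 counts (0.24, edgeR adjusted p = 0.223).

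GINS4 counts were divided between NM_032336, with 55.9% in the controls, and XM_005273659, with 44.1%, and the log2 fold changes of these transcripts were 0.64 and 0.63. The share of a transcript in its gene's counts did not overlap between the groups for 5 of the 26 tested transcripts of genes with more than 1, against 12.0% of all such transcripts. In GINS3, NM_022770 made up 58.7% ± 7.45 of its counts in the controls and 69.0% ± 2.98 after 4HC (SD, n = 3 each, groups not overlapping, exact permutation p = 0.1, the smallest possible). NM_003504 of CDC45 had 72.3% ± 4.36 and then 67.5% ± 1.68, and XM_024450863 of RPA1 55.6% ± 1.56 and then 58.1% ± 1.55 (SD, n = 3 each, exact permutation p = 0.1 for both). The other shares without overlap were those of XM_005254521 and XM_024449972 of TIPIN, both lower after 4HC. GINS2 and RPA3 each had a single listed transcript. For TIPIN the division was unstable between samples. Its main transcript NM_017858 had 194, 195 and 297 counts in the controls and 188, 273 and 225 after 4HC, with overlapping groups and a log2 fold change of 0.00 (95% confidence interval from -0.57 to 0.58). The other TIPIN transcripts together had 276, 264 and 160 counts in the controls and 219, 134 and 165 after 4HC, also overlapping (log2 difference -0.40, exact permutation p = 0.3). The transcript that DESeq2 called lower was XM_005254521 of TIPIN, with 30.9, 24.4 and 29.9 counts in the controls and 11.6, 8.86 and 9.58 after 4HC, groups that did not overlap. XM_024449972 of TIPIN, with 40.0, 26.8 and 17.7 counts in the controls and 12.4, 6.59 and 6.83 after 4HC, did not overlap either. These transcripts together went from a mean of 56.6 to 18.6 counts, beside a gene mean of 462 and 402 counts, and neither was called by edgeR (adjusted p = 0.335 and 0.369).

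The changes of the 10 genes were set beside lists of genes that work with them. For all list counts below, the shares over all genes tested were 19.2% called higher and 17.1% called lower. The remaining CMG subunits are MCM2 to MCM7, and they did not move as one. All 6 are described because they complete the helicase, a choice made after their values were seen. MCM4 rose from 217 ± 6.99 to 267 ± 4.43 CPM (log2 fold change 0.30), and MCM7 (0.21) and MCM2 (0.14) rose as well. MCM6 fell by 0.29 on the log2 scale, from 240 ± 10.6 to 197 ± 4.55 CPM, and MCM3 and MCM5 were not called (log2 fold changes -0.03 and -0.02). Of the 11 CMG subunits, 7 thus rose, 1 fell and 3 were not called. Without the first 4HC sample, MCM2 was not called (edgeR adjusted p = 0.0588).

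In the list on loading and activation of the helicase, which includes MCM2 to MCM7, 11 of 15 genes rose and 2 fell, with a median log2 fold change of 0.21. RECQL4, a helicase-like factor needed to load CDC45 and GINS, rose by 0.57 on the log2 scale, MTBP, which helps recruit CDC45, by 0.40, and DONSON, which helps bring GINS to the MCM ring, by 0.35. The genes that fell were MCM6 and DBF4, the activator of CDC7 kinase (log2 fold change -0.15). DBF4 lost its call without control sample 1 or 3 or without the first or second 4HC sample, which left 1 gene lower.

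Of 26 other replisome genes, 22 rose and 0 fell (edgeR, 0 lower also at an unadjusted p under 0.05 and by DESeq2), with a median log2 fold change of 0.37. Under the alternatives, 20 to 23 were called higher. CHTF8 was among the 22 but was not called by DESeq2 (adjusted p = 0.407). PCNA, the sliding clamp and a known p53 target, had 279, 268 and 276 CPM in the controls and 559, 569 and 572 CPM after 4HC. It was the only gene of the list past 2-fold (log2 fold change 1.04). LIG1, the ligase that joins lagging-strand fragments, rose by 0.70, and POLA2, a subunit of the primase complex, by 0.62. CLSPN, which works with TIMELESS and TIPIN in the checkpoint, and WDHD1, which links CMG to polymerase alpha, rose by 0.36 and 0.54, and were chosen for their role after their values were seen.

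Of 12 genes of fork protection and cohesion, 8 rose and 1 fell, with a median log2 fold change of 0.35. ESCO2, which acetylates cohesin at the fork, rose from 27.9 ± 1.94 to 46.4 ± 2.19 CPM (log2 fold change 0.73), FANCD2, of the crosslink repair pathway, by 0.70, and BRCA2, which protects reversed forks, by 0.50. TOP1, which relieves the torsion ahead of the fork, fell by 0.21. Without control sample 2 or without the third 4HC sample, BOD1L1 was also called lower, which made 2.

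Of 16 genes for proteins that bind RPA or are recruited by it, 14 passed the filter, leaving out RPA4 and RADX. Of these, 3 rose, 0 fell and 11 were not called, with a median log2 fold change of 0.03. The share that rose was near the 19.2% of all genes tested that were called higher. Those called were RFWD3, a ubiquitin ligase of RPA (0.28), PRIMPOL, a repriming polymerase (0.27), and ATRIP, the partner of ATR that binds RPA (0.27). ATR itself had a log2 fold change of -0.11 (edgeR adjusted p = 0.0556). At an unadjusted p under 0.05, 3 were lower, and DESeq2 called 0 lower. Without control sample 1 or the third 4HC sample SMARCAL1 was called lower, and without control sample 2 ATR was, which made 1 in each case.

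**Figure D5:**
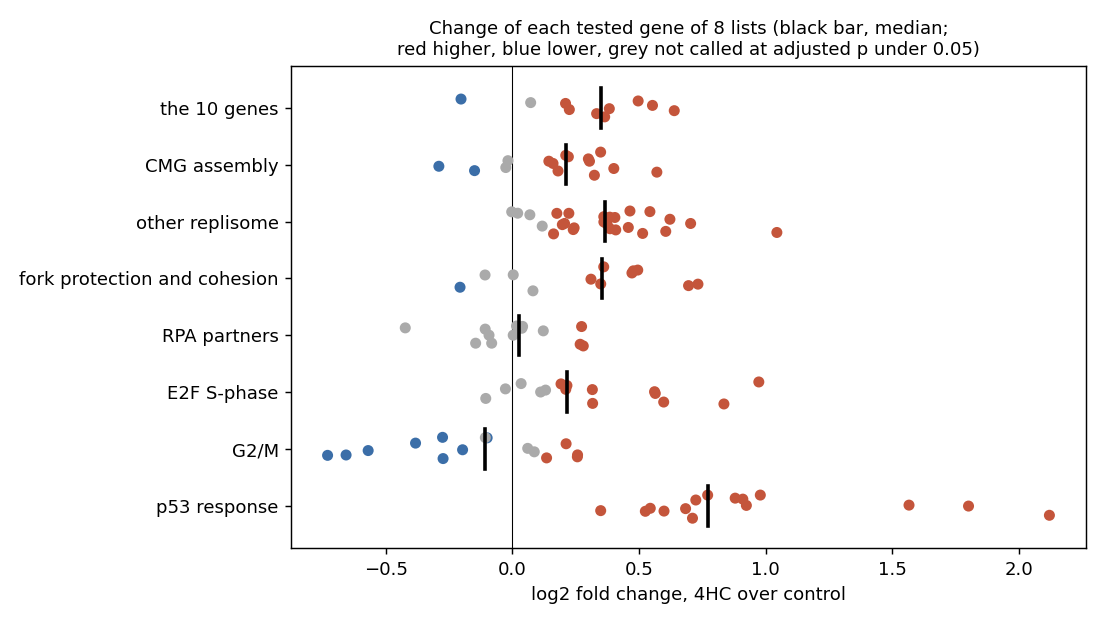
Log2 fold change of 4HC over control (x axis) of each tested gene in 8 lists, 1 point a gene, with the median of each list as a black bar and calls at an adjusted p under 0.05 in red (higher) and blue (lower). The 10 genes, the other replisome genes and the fork protection genes have medians of 0.35, 0.37 and 0.35, the RPA partners lie around 0, and the G2/M genes extend to the left.

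Cell-cycle and p53 genes moved in the same samples, and their part in the changes of the 10 genes was not tested. Of 15 E2F-driven genes of S phase, 10 rose and 0 fell (edgeR, 1 lower at an unadjusted p under 0.05, DESeq2 0 lower), led by the licensing factor CDT1, from 40.7 ± 3.00 to 80.0 ± 2.26 CPM (log2 fold change 0.97), the ribonucleotide reductase subunit RRM2 (0.84) and cyclin CCNE2 (0.60). Of 15 genes of G2 and mitosis, 4 rose and 8 fell, with a median of -0.11. The 4 that rose were CDK1 (0.26), AURKB (0.26), TOP2A (0.21) and CCNF (0.14). CCNF was close to the threshold (edgeR adjusted p = 0.049). It was not called under most alternatives, DESeq2 (adjusted p = 0.166) and limma among them. CENPF, one of those that fell, was not called with library size only, with a replicate block or by limma. Nor was CENPF called without control sample 1 or 3 or without the first 4HC sample. Under the alternatives, 3 to 5 of the 15 genes were called higher and 7 to 9 lower. The mitotic kinase PLK1 fell by 0.73 on the log2 scale, from 116 ± 0.966 to 69.9 ± 4.75 CPM, the mitotic activator CDC20 by 0.66 and cyclin CCNB1 by 0.57. All 15 direct p53 targets rose, among them the stress cytokine GDF15 (2.12), the CDK inhibitor CDKN1A (1.80), from 225 ± 7.25 to 783 ± 18.0 CPM, and TP53I3, a quinone oxidoreductase homologue (1.57).

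The profile over the 6 samples most like the mean of the 10 genes was sought among 10148 genes outside the lists with a mean of at least 5 CPM. The measure was the root mean square distance between log2 CPM profiles, each centred on its own mean. The nearest were SRD5A3 (0.0160), SYNM (0.0162), TUBA1B (0.0178), AGAP1 (0.0179) and CLN8 (0.0190), on the log2 scale. All 5 were closer to the mean than any of the 10 genes themselves, whose distances ran from 0.0453 for CDC45 to 0.257 for TIPIN. With only 2 groups of 3 samples, a small distance says mainly that a gene rose by a like amount, and the 5 had log2 fold changes between 0.30 and 0.32.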

How the data were processed

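COV434 RNA was sequenced in 3 control and 3 4HC samples, grouped by their labels. Read filtering by the authors used SOAPnuke, and later steps ran on Dr. Tom. The submitters' processing notes name GRCh38.p13, HISAT2, Bowtie2, RSEM 1.3.1 and DESeq2 1.4.5, with no role given. The authors deposited expected counts per gene and per transcript, without normalization, of which 85.5% were whole for genes. They also deposited TPM and FPKM values, scaled by the authors to length and library size. The authors' own fold changes and p-values in these tables were not used, nor was a second gene table with the same values.

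Expected counts were rounded. All genes were fitted with edgeR 4.0.16 in R 4.3.3 (filterByExpr, TMM normalization, quasi-likelihood test, condition as the only factor), with Benjamini-Hochberg adjustment over all genes tested and calls at 0.05. Transcripts were fitted likewise. CPM are TMM-scaled counts. Replicates were checked for duplicate libraries, and none was found. DESeq2 1.42.0, other scalings and filters, limma 3.58.1 on log2(TPM + 1), log2(FPKM + 1) and log2(TPM + 0.1), a replicate block and leaving out each sample were alternatives. The edgeR procedure was tested on simulated counts. Gene positions and exon overlaps came from GENCODE 29, promoter sequences from RefSeq, and neighbouring starts were sought within 1000 bases.

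Named by rule were the 10 genes, up to 3 called genes with the largest change from each list, and the 5 genes of nearest profile. Other genes were named outside this rule, for their role, their position or their call. The 10 genes and all lists were chosen with earlier results of these data known. The deposited strand differs from the annotation for RPA3 and TIMELESS. Granulosa markers that passed the filter numbered 4, with WT1 the only one called (218 ± 1.44 to 171 ± 2.59 CPM).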

Additional observations from a re-analysis of the deposited data

How the results depend on the processing

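All 10 genes kept their direction and their side of the threshold under all 15 alternatives, in which the log2 fold change of GINS4 lay between 0.61 and 0.66, of TIMELESS between 0.53 and 0.57, of GINS2 between 0.03 and 0.11 and of TIPIN between -0.22 and -0.15. The call of TIPIN came close to the threshold of 0.05, with a DESeq2 adjusted p of 0.0496. Without control sample 1 its edgeR adjusted p was 0.0412. The genes named by the rule given above had 555 values under alternatives. Of these, 549 kept call and direction, 0 reversed, and the others were AGAP1 and CLN8, which were not called by limma. Genes named outside that rule are not among these values. Of them, DBF4, MCM2, CCNF, CENPF, ATR, SMARCAL1 and BOD1L1 changed call under some alternatives. Of 270 counts under alternatives, 245 stayed within 1.5 times the reported one.

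Helicase loading genes called lower numbered 1 in place of 2, without DBF4, with DESeq2, with library size only, and with limma on log2(TPM + 1), log2(FPKM + 1) and log2(TPM + 0.1), and from 1 to 2 when single samples were left out. RPA partners called lower numbered 1 in place of 0, by ATR, with DESeq2 size factors and with a minimum of 10 counts in every sample, and from 0 to 1 when single samples were left out. Fork protection genes called lower numbered from 1 to 2 when single samples were left out. Transcripts of the 10 genes called higher numbered 10 with DESeq2, and those called lower numbered 1. Whichever sample was left out, 0 were called higher, while from 58 to 127 of all transcripts were called in either direction. The causes were not tested, except that leaving out a sample leaves fewer samples. Subunit pairs without overlap numbered 8 to 9 when single samples were left out and 9 with deposited TPM.

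No clear pairing of the samples by replicate number was seen. The labels do not say whether there was one, and so few samples cannot exclude it. Deviations of same-numbered samples correlated at 0.009, 0.069 and 0.030, those of other pairs from -0.080 to 0.045, and not every sample correlated best with its own number. With the replicate number as a block, 8 of the 10 genes were still called higher and 1 lower. In that setting 0 of their transcripts were called higher, where 0 of all 42216 transcripts tested were called.

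At 16133786 or more counts a sample, the 95% confidence interval of GINS2, from -0.04 to 0.18, includes both 0 and a small rise. TIPIN is limited by non-whole gene counts and by the division of its counts between transcripts.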
